A study of Citrullus lanatus with 6 samples.

Results

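A group of 19 annotated genes gave next to no reads in leaves of well-watered watermelon and at least 20 reads in the leaf of every drought-stressed plant. They were selected on these read counts. A gene belonged to the group if its counts summed to 5 or less over the 3 control libraries and were 20 or more in each of the 3 drought libraries, and 1 further gene that met both limits, ClCG02G006430, was left out of the list. The 19 genes came from 18861 annotated genes in a count table of 19742, the rest being gene models that the authors added from their reads. A deposited table of expression levels held 23568 genes, 22545 of them annotated, and 3826 of its genes were at 0 in every library. The count table left out genes with no read in any library, and annotated genes below are those that it holds. The contrast between watered and drought-stressed leaves was therefore used to choose the genes, and it is described here without a test.

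The plants were of the cultivar Crimson Sweet (Citrullus lanatus) and grew in pots of soil-less medium. Control pots were kept at 95 ± 5% of their water content, and watering was withheld from the drought pots to hold them at 35 ± 5%. Leaves were sampled 8 days after the start of drought treatment (8 DAT), from plants 89 days old. Each library came from 1 of 3 independent plants per condition, and all plants shared the same cultivar, medium and fertilizer.

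A gene can be called silent only relative to the depth of sequencing, because a transcript at very low level may leave no read. Genes of this kind are often under tight control: plants keep stress proteins, signalling repressors and seed or flower proteins off in a growing leaf and switch some of them on when water runs short. Abscisic acid and jasmonate, the main hormones of water deficit and wounding, act through transcription factors of the bZIP family and through repressor proteins of the TIFY family, respectively.

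The libraries held 17907062 to 22351455 counts, and for a gene with no control count the 3 control libraries together were assigned a floor of 3 counts, equal to 0.0527 CPM, the unit of counts scaled to library totals corrected by the TMM method. Descriptions came only from the study's lists of genes called on these samples, so the sets in this paragraph do not stand for whole classes of genes. Of 10 genes described as chlorophyll-binding, Rubisco or photosystem proteins, none was at 0 in all control libraries. Their summed level was 9855 CPM in control plant 2, against 47350 and 35170 CPM in control plants 1 and 3 and 7732 to 11240 CPM in the drought plants, so control plant 2 stood apart from the other control plants. Summed levels of 24 genes described as oleosin, caleosin, seed storage, vicilin or late embryogenesis proteins were 1811 to 2337 CPM in control. In drought their summed levels were 431.8 to 510.0 CPM. Those of 10 genes described as flower or pollen proteins, S-RNase left out, were 150.2 to 319.2 and 124.4 to 138.9 CPM. Single genes went both ways, with 4 of these 24 genes called higher in drought and 11 lower by edgeR. Of the flower or pollen genes, 2 were called higher and 4 lower. In whole leaves, fewer cells of a type and less RNA per cell cannot be told apart.

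Few of the genes silent in control leaves reached the drought limit. The count table leaves out genes with no read in any library, so the counts and shares here cover only genes with a read in some library. Among the 18861 annotated genes of that table, 1377 had a control sum of 5 or less. In 872 of them (63.3%) the drought sum was also 5 or less, and 318 had no drought count at all. A further 51 reached 20 counts in only 1 or 2 drought libraries, and 20 (1.45%), the left-out gene included, reached it in all 3. With the limits exchanged between the conditions, 24 annotated genes were on in control and silent in drought.

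**Figure D1:**
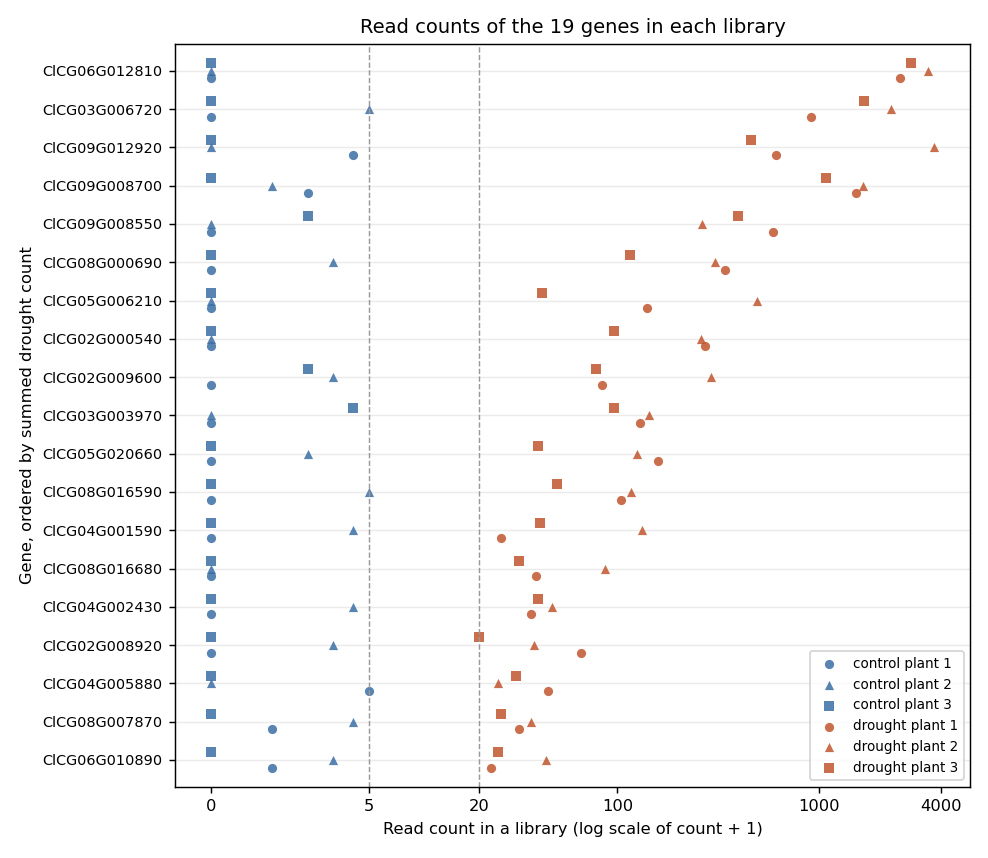
Read counts of the 19 genes in each of the 6 libraries, on a log axis of count + 1, with genes ordered by their summed drought count. Control plants are blue, drought plants are orange, marker shapes stand for plants 1, 2 and 3, and dashed lines mark counts of 5 and 20. Drought counts ran from 20 to 3701 and no control count was over 5, a gap that the selection itself set.

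The highest level belonged to a glycine-rich protein. ClCG06G012810, whose family shares long runs of glycine and includes cell wall proteins as well as RNA-binding proteins, had 0, 0 and 0 counts in control plants 1, 2 and 3 and 2520, 3464 and 2827 counts in drought plants 1, 2 and 3. Per gene length its drought level was 255.7, 349.1 and 301.1 FPKM (fragments scaled to gene length and library total), a mean of 302.0 ± 46.7 (SD, n = 3) that ranked 303 among the 18861 annotated genes. All 3 drought plants were close to each other, and the level was at least 2386-fold higher than the floor of the control group. It is a short gene of 444 bases with no intron in the deposited model, on the minus strand of chromosome 6 (26009257 to 26009700, Charleston Gray genome, as for all positions given here).

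Protein TIFY 5A was next in level. ClCG03G006720 (chromosome 3, 7529442 to 7530588, minus strand) is annotated as this protein, which in Arabidopsis represses jasmonate responses and is also known as JAZ8. Its counts were 0, 5 and 0 in control plants 1, 2 and 3 and 909, 2253 and 1664 in drought plants 1, 2 and 3, and its drought level was 62.3, 153.4 and 119.8 FPKM (mean 111.8 ± 46.1, SD, n = 3). Control plant 2 gave all of the control counts, and drought plant 1 lay lowest. The summed counts scaled to the TMM-corrected library totals differed 784-fold (95% binomial counting interval 336 to 2416). These intervals and the floor cover counting error only, not the spread between plants.

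The gene annotated as S-RNase, ClCG09G008700 (chromosome 9, 8270507 to 8272540, minus strand), belongs by that name to the T2 ribonucleases, some of which reject a plant's own pollen in self-incompatible species. It had 2, 1 and 0 control counts and 1528, 1650 and 1085 drought counts, and its drought level was 73.5, 78.8 and 54.8 FPKM (mean 69.0 ± 12.6, SD, n = 3). All drought plants were high and near each other, at a counted ratio of 1154 (395 to 5600).

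ClCG09G012920 (chromosome 9, 16093227 to 16095653, minus strand) was given no description in the lists at hand. It had 4, 0 and 0 control counts and 612, 3701 and 460 drought counts, or 17.8, 107.0 and 14.1 FPKM (mean 46.3 ± 52.6, SD, n = 3). Drought plant 2 stood 7.09 times above drought plant 3, and the other two drought plants were alike. The mean of this gene therefore rests on 1 plant, although each of the 3 drought plants lay far above the controls.

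Together these 4 genes held 80.1% of the 28304 drought counts of the group, and ClCG06G012810 alone held 31.1%. The group took up 0.0345%, 0.0603% and 0.0339% of all counts in drought plants 1, 2 and 3.

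The next tier reached 10.2 to 34.7 FPKM and included short genes. ClCG02G000540, annotated as ST63-2 (chromosome 2, 592553 to 593097, plus strand), had no control count and 271, 260 and 96 drought counts, a mean of 34.7 ± 15.6 FPKM (SD, n = 3). Drought plants 1 and 2 were alike and drought plant 3 was lowest, and the level was at least 169.8-fold higher than the control floor. ClCG05G006210, of a senescence-associated protein family (chromosome 5, 6178299 to 6178859, minus strand), likewise had no control count and had 141, 492 and 42 drought counts, or 14.4, 49.9 and 4.50 FPKM (mean 22.9 ± 23.9, SD, n = 3). Here drought plant 2 was 10.3 times drought plant 3, the widest range in the group.

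ClCG09G008550 encodes a protein with TIGR01615, a plant-specific domain of unknown function (chromosome 9, 8108987 to 8109907, minus strand). Its counts were 0, 0 and 2 in control and 591, 263 and 399 in drought, with a mean of 20.7 ± 8.07 FPKM (SD, n = 3) and drought plant 1 highest. A transmembrane protein gene (ClCG08G000690, chromosome 8, 1535855 to 1538469, minus strand) had 0, 3 and 0 control counts and 343, 304 and 116 drought counts, a mean of 10.2 ± 4.70 FPKM (SD, n = 3). Drought plant 3 was lowest in the latter gene, while in the TIGR01615 gene drought plant 2 was lowest.

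ClCG02G009600 is annotated as leucine-rich repeat/extensin 1, a cell wall protein that in Arabidopsis shapes root hairs (chromosome 2, 14890240 to 14891680, plus strand). It had 0, 3 and 2 control counts and 84, 293 and 78 drought counts, with a mean of 15.3 ± 12 FPKM (SD, n = 3). Its model overlaps that of ClCG02G009610, on the other strand, by 310 bases. That neighbour had 9, 9 and 0 control counts and 380, 1758 and 283 drought counts, with drought plant 2 highest in both genes. The library kit did not mark strand, so reads from the 2 genes cannot be told apart in the shared stretch, and ClCG02G009600 is an uncertain member. No other model of the count table overlapped a member. The closest to a strongly expressed gene were ClCG05G020660 and ClCG09G008700, with an annotated gene on the other strand at 362 and 798 bases.

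Genes of transcription factors and transporters lay lower. ClCG08G016680, of the bZIP family (chromosome 8, 28969208 to 28969657, plus strand), had no control count and 39, 87 and 32 drought counts, a mean of 5.31 ± 2.91 FPKM (SD, n = 3) and at least 42.8-fold higher than the control floor. ClCG04G001590, annotated as HBP-1b(C1), a bZIP factor described in wheat as a binder of histone gene promoters (chromosome 4, 5636226 to 5637491, minus strand), had 0, 4 and 0 control counts and 26, 132 and 41 drought counts, with a mean of 2.77 ± 2.34 FPKM (SD, n = 3). Drought plant 2 was highest in both.

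Bidirectional sugar transporter N3, of the SWEET family that lets sugars pass membranes (ClCG03G003970, chromosome 3, 4324017 to 4325553, minus strand), had 0, 0 and 4 control counts and an even 130, 143 and 96 in drought, a mean of 5.44 ± 0.928 FPKM (SD, n = 3). Cation/H(+) antiporter 15, of a family that exchanges cations for protons (ClCG04G002430, chromosome 4, 8247773 to 8250573, minus strand), had 0, 4 and 0 control counts and 37, 47 and 40 drought counts, a mean of 0.717 ± 0.0828 FPKM (SD, n = 3). Both transporter genes were steady among the drought plants, in contrast to the 2 transcription factor genes.

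The seed dormancy protein gene ClCG05G020660 (chromosome 5, 32706409 to 32707503, minus strand) had 0, 2 and 0 control counts and 160, 125 and 40 drought counts, a mean of 4.47 ± 2.49 FPKM (SD, n = 3). ClCG08G016590 (chromosome 8, 28891010 to 28892976, plus strand), described only as a cDNA clone, had 0, 5 and 0 control counts and 104, 117 and 50 drought counts, a mean of 7.02 ± 2.61 FPKM (SD, n = 3). Drought plant 3 was lowest in both of these genes.

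Members near the drought limit included a kinase family gene and a retroelement. ClCG02G008920, the kinase family gene (chromosome 2, 12323280 to 12324754, minus strand), had 0, 3 and 0 control counts and 66, 38 and 20 drought counts. ClCG06G010890, annotated as a reverse transcriptase, the enzyme by which retroelements copy themselves (chromosome 6, 23446552 to 23450118, plus strand), had 1, 3 and 0 control counts and 23, 44 and 25 drought counts. The gene of a phosphatidylinositol 3- and 4-kinase family protein, an enzyme type that phosphorylates membrane lipids (ClCG04G005880, chromosome 4, 20076924 to 20078579, minus strand), had 5, 0 and 0 control counts and 45, 25 and 31 drought counts. These 3 genes reached 1.50 ± 0.821, 0.674 ± 0.242 and 0.928 ± 0.277 FPKM (SD, n = 3), and their counted ratios were 33.6, 18.7 and 16.4. ClCG08G007870 (chromosome 8, 20403931 to 20404917, plus strand), known only by a database identifier, was at 1, 4 and 0 counts in control and 32, 37 and 26 in drought, a mean of 1.61 ± 0.238 FPKM (SD, n = 3).

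The limits cut through a continuous range of counts. Just outside the control limit, with a control sum of 6, were a class IV heat shock protein gene, ClCG10G007510 (2, 0 and 4 control counts and 57, 83 and 48 drought counts), a gene of caleosin, a protein of oil bodies, ClCG06G007230 (3, 0 and 3, then 34, 59 and 26), and the undescribed ClCG02G014500 (2, 4 and 0, then 35, 35 and 936). Just inside it, with a sum of 5, were TIFY 5A, ClCG02G009600, ClCG08G016590, ClCG08G007870 and ClCG04G005880. Just below the drought limit were a wound-responsive family gene, ClCG02G017310, a leucine-rich repeat receptor-like kinase gene, ClCG07G001200, and a gene of proteinase inhibitor I-B, ClCG09G013060, whose lowest drought counts were 18, 17 and 16. The lowest inside were ClCG02G008920, ClCG06G010890 and ClCG04G005880, at 20, 23 and 25.

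As a whole the group was not highly expressed in drought. Its median drought level was 7.02 FPKM, against 14.0 for the 13910 annotated genes with 20 or more counts in each drought library. All annotated genes of the count table, which leaves out genes with no read in any library, had a median of 8.00 FPKM. Only 2 members passed 100 FPKM, 9 passed 10 FPKM and 7 were under 5 FPKM. Medians of CPM, which take no account of length, were 5.24 for the members and 21.7 for the genes that met the drought limit. In the edgeR test over 16318 genes, 866 genes (5.31%) were called higher in drought and 1319 (8.08%) lower. All 19 members were tested and 18 were called higher, which the selection favours and from which nothing is read. The exception was ClCG04G005880 (adjusted p = 0.0696 from edgeR, and 0.0571 with the replicate block).

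The spread between drought plants was bounded by the selection only through the limit of 20 counts in every drought library, which dropped the 51 genes that reached it in 1 or 2 of them and so held down the spread possible for members with few counts. The genes set beside them met the same limit. The coefficient of variation (CV, SD over mean of TMM-scaled CPM) had a median of 40.1% over the members and ran from 9.94% to 111.1%, against a median of 14.6% over the 13910 genes that met the drought limit. A CV over 50% was found in 7 members (36.8%) and in 712 of those genes (5.12%). Low counts alone spread more, and the members had a median of 123 counts per drought library, against 505.3 for the comparison genes. Counting error for the members had a median CV of 9.02%, and 14 members had a CV more than 2 times their own counting error.

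Genes of similar read count give a closer comparison. In each class of mean drought count, from 20 to 50 up to 1000 or more, the CVs of the members were set beside those of the other annotated genes that met the drought limit. Of the 19 members, 16 lay above the median of their class and 10 above its 90th percentile, the latter including all 4 members with 200 to 500 counts, where the other 3296 genes had a median CV of 14.8% and a 90th percentile of 35.1%. Among members with 20 to 50 counts, 1 of 5 passed the 90th percentile of 48.0%.

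**Figure D2:**
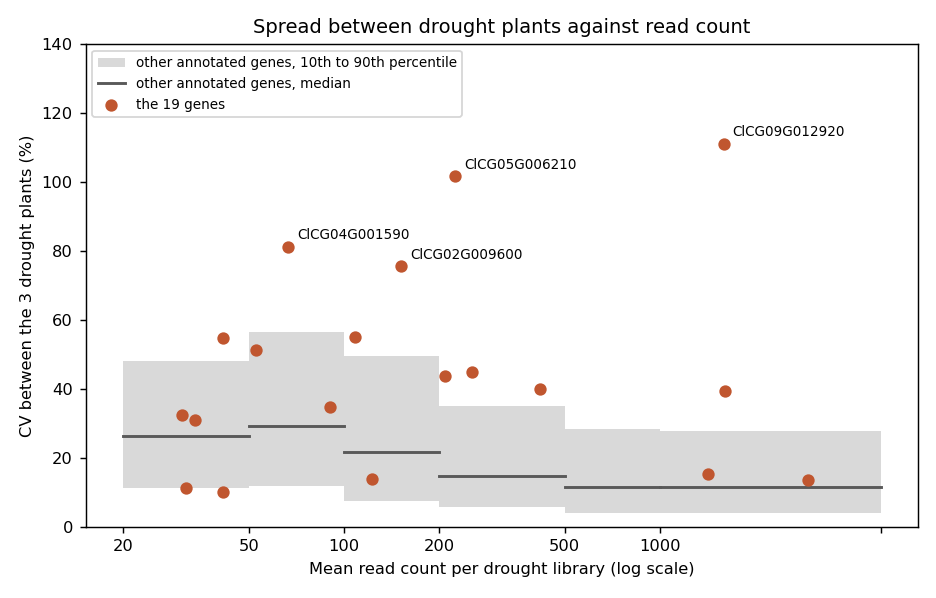
CV between the 3 drought plants, in percent, against mean read count per drought library on a log axis. Orange points are the 19 genes, grey boxes span the 10th to the 90th percentile of the other annotated genes with 20 or more counts in each drought library within 6 count classes (the last is 1000 or more), and dark lines are class medians. ClCG09G012920 and ClCG05G006210 lie highest, at 111.1% and 101.7%, and 16 points lie above the class median.

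The widest spreads belonged to ClCG09G012920 (111.1%), ClCG05G006210 (101.7%) and ClCG04G001590 (81.3%), and in all 3 genes drought plant 2 was highest. The most even were the antiporter gene ClCG04G002430 (9.94%), ClCG08G007870 (11.2%) and the glycine-rich ClCG06G012810 (13.5%). For the antiporter gene and ClCG08G007870 the CV was under that of counting alone, 15.6% and 17.8%, whereas for ClCG06G012810 counting error was 1.85%.

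The spread had a direction. Drought plant 2 was the highest of the drought plants in 13 members (68.4%), drought plant 1 in 6 (31.6%) and drought plant 3 in none. Among the 13910 genes that met the drought limit these shares were 36.7%, 34.9% and 28.5%, and among 814 other annotated genes called higher by edgeR they were 46.8%, 31.9% and 21.3%. Drought plant 3 was lowest in 11 members (57.9%), against 27.4% and 36.9% in those gene sets. Scaled by library totals, the share with drought plant 2 highest was again 68.4% for the members and rose to 46.3% and 57.7% in the gene sets. The members share the same 3 plants, so they are not independent of one another, and a part of the individual plant in this pattern was not tested.

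The few control counts were uneven as well. Of 58 control counts of the members, 37 (63.8%) came from control plant 2, 13 from control plant 1 and 8 from control plant 3. These counts were bounded by the selection and lay in 15 genes, so the shares are a description with no test. Control plant 2 held 29.5% of all control counts, or 36.2% on TMM-scaled totals. Among annotated genes with 5 or fewer counts in either condition, it held 41.3% of 1501 control counts. In 7 members every control count lay in control plant 2, among them TIFY 5A, the transmembrane protein gene ClCG08G000690 and the antiporter gene, and 4 members (ClCG06G012810, ClCG02G000540, ClCG05G006210 and ClCG08G016680) had no count in any control library.

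With the control limit applied to only 2 control plants, more genes qualified whichever plant was left out: 30 without control plant 1, 36 without control plant 2 and 35 without control plant 3. The 17 genes added without control plant 2 included a glycine-rich cell wall structural protein gene, ClCG05G021410 (0, 7 and 0 control counts and 178, 274 and 135 drought counts), a LOB domain gene, ClCG09G022590 (1, 14 and 0, then 58, 322 and 93) and a cytochrome P450 gene, ClCG05G019360 (3, 16 and 2, then 56, 216 and 36), all 3 chosen as examples with their values in view.

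The members were short genes. Their median length was 937 bases (273 to 2634), against 1420 for all annotated genes, and 10 of 19 (52.6%) were under 1000 bases, against 30.6%. However, annotated genes silent in control were shorter still, with a median of 741 bases and 63.3% under 1000 bases, and so were the 24 genes on in control and silent in drought (median 757.5 bases, 75.0% under 1000). The genes that met the drought limit had a median of 1593 bases. Relative to other control-silent genes, the members were thus longer in the median, which was not tested. Both limits were set on read counts not scaled to gene length, so these lengths are not independent of the selection.

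**Figure D3:**
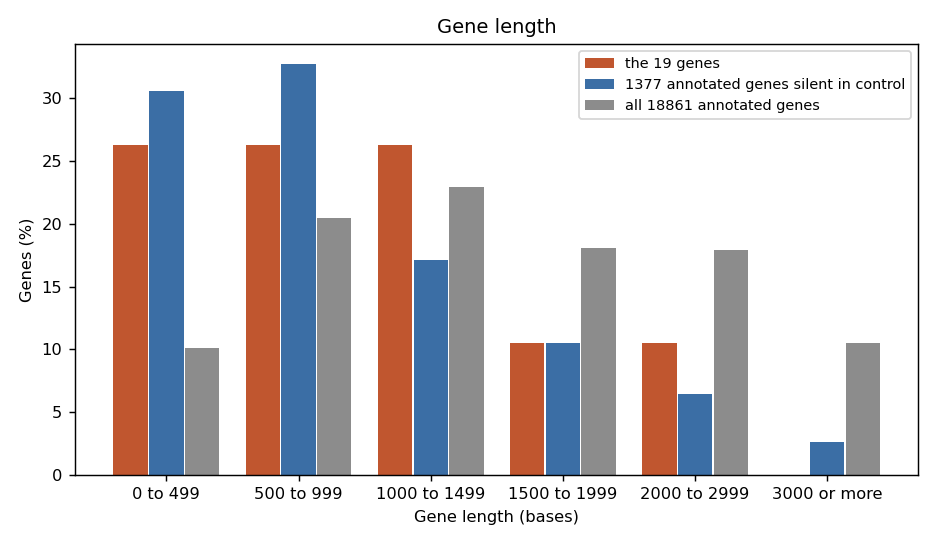
Share of genes, in percent, in 6 classes of gene length in bases, for the 19 genes (orange), the 1377 annotated genes silent in control (blue) and all 18861 annotated genes (grey). Annotated genes are those of the count table, which leaves out genes with no read in any library. Of the 19 genes 26.3% were under 500 bases, against 30.6% of the control-silent genes and 10.1% of all annotated genes.

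The shortest members were ClCG02G000540 with 273 bases, ClCG05G006210 with 441 and ClCG06G012810 with 444, and the longest were the antiporter gene ClCG04G002430 with 2634, the reverse transcriptase gene ClCG06G010890 with 2070 and ClCG04G005880 with 1656. The genomic span, introns included, had a median of 1441 bases, against 3475 for all annotated genes and 1629 for the control-silent genes. Span equalled length, as in a gene with a single exon, in 5 members (26.3%): ClCG06G012810, ClCG09G008550, ClCG08G016680, ClCG05G020660 and ClCG04G005880. The share was 13.3% of all annotated genes and 24.0% of the control-silent genes.

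Members were scattered over 7 chromosomes. Chromosome 8 held 4, chromosomes 2, 4 and 9 held 3 each and chromosomes 3, 5 and 6 held 2 each. Chromosomes 1, 7, 10 and 11 held none, although chromosome 1 carried 11.5% of the annotated genes. On chromosome 8, with 7.44% of the annotated genes, ClCG08G016590 and the bZIP gene ClCG08G016680 lay 76.2 kb apart on the plus strand. They were the one pair within 100 kb, with 6 annotated genes of the count table between them. The TIGR01615 gene ClCG09G008550 and the S-RNase gene ClCG09G008700 were next, 161 kb apart on the minus strand of chromosome 9 with 12 such genes between them. Neither pair was adjacent, and in the first pair both genes were highest in drought plant 2, whereas in the second the highest plants were 1 and 2.

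Genes next to a member were the nearest annotated genes of the count table, and one with no read in any library may lie nearer. These next genes were not otherwise chosen by their counts, so their edgeR calls could be counted. Of 30 tested next genes, 5 (16.7%) were called higher in drought and 2 (6.67%) lower, beside 5.31% and 8.08% over all tested genes, and their median log2 fold change was 0.60, against -0.03 over all tested genes. Without the overlapping ClCG02G009610 the count was 4 of 29 (13.8%), and over the next 2 genes on either side it was 8 of 61 (13.1%), with a median log2 fold change of 0.23. The 5 calls fell to 2 in 4 of the fits that left out a library and rose to 9 without control plant 2, and ClCG06G012800 alone among them was called in every such fit.

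**Figure D4:**
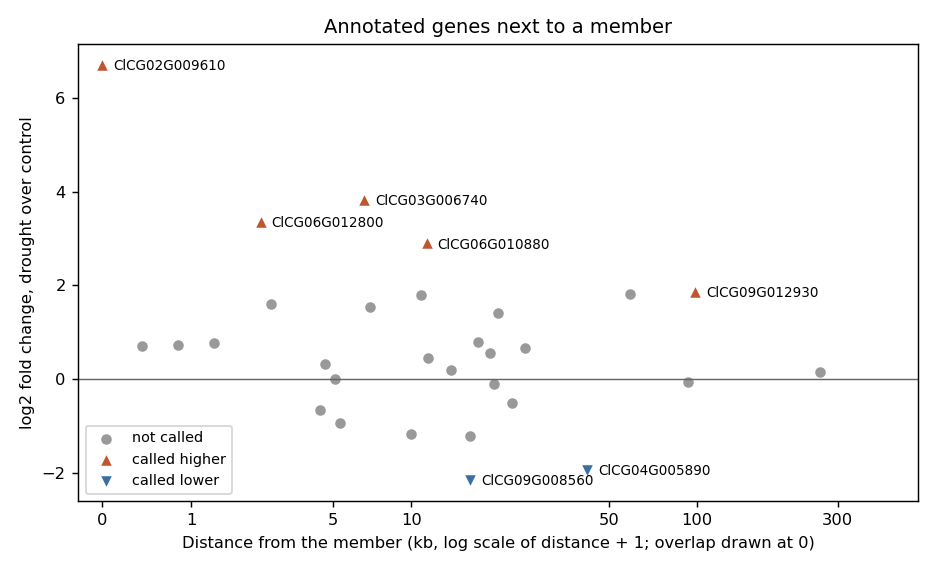
log2 fold change (drought over control) of the 30 tested annotated genes next to one of the 19 genes, against their distance in kb on a log axis of distance + 1, with the overlapping gene drawn at 0. Next genes are the nearest of the count table, which leaves out genes with no read in any library. Orange triangles were called higher and blue triangles lower by edgeR, and grey points were not called. The genes called higher lie at log2 fold changes of 1.86 to 6.72, and 3 of the 5 are within 10 kb.

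ClCG06G012800, another glycine-rich protein gene, lay 2.42 kb from ClCG06G012810 on the same strand. It had 118, 228 and 88 control counts and 2180, 1604 and 1610 drought counts, with no overlap between the conditions, and edgeR put the log2 fold change at 3.37 ± 0.35 (SE, adjusted p = 0.00489). Another gene of the family close by in gene number, ClCG06G012780, went from 219, 138 and 66 to 770, 636 and 553 counts (log2 fold change 1.92 ± 0.42, SE, edgeR adjusted p = 0.0291, and up to 0.103 without a drought plant). The neighbours were thus already on in watered leaves where ClCG06G012810 was not. Reads shared between related copies could not be examined in the counts.

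Beside TIFY 5A, an alpha/beta-hydrolase gene, ClCG03G006740, lay 6.65 kb away. It had 22, 6 and 4 control counts and 224, 174 and 170 drought counts, with a log2 fold change in edgeR of 3.83 ± 0.67 (SE; adjusted p = 0.0157), and it was not called without drought plant 1, 2 or 3 (edgeR adjusted p up to 0.0695). ClCG02G009610, the overlapping gene, stood at a log2 fold change of 6.72 ± 1.09 (SE) with an edgeR adjusted p of 0.0129, or 0.0570 without control plant 1. The other calls lay farther off: a pentatricopeptide repeat gene, ClCG06G010880, at 11.4 kb and ClCG09G012930 at 98.5 kb were higher, and a kinase family gene, ClCG09G008560, at 16.4 kb and a 4-alpha-glucanotransferase gene, ClCG04G005890, at 42.1 kb were lower. These 4 were called in 1, 2, 5 and 2 of the 6 fits with a library left out. With the replicate block a sixth neighbour, ClCG05G006220, 10.9 kb from the senescence-associated gene, was also called higher (adjusted p = 0.0191 from edgeR).

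Families of the members could be followed only among genes with a description, and descriptions came from the study's lists of genes called on these samples. The counts below are therefore no independent evidence of a direction. Of 16 other glycine-rich protein genes tested, 10 were called higher and 3 lower. ClCG06G000410 rose from 6, 6 and 5 to 277, 579 and 426 counts (log2 fold change 5.91, SE 0.41, adjusted p = 0.00295 from edgeR), and ClCG02G002460 rose from a high base of 1370, 2374 and 951 to 29143, 45000 and 24673 counts (4.11, SE 0.44, adjusted p = 0.00491 from edgeR). ClCG11G004420, described as an RNA-binding member, fell by 2.13 on the log2 scale (adjusted p = 0.0141 from edgeR).

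Of 5 other TIGR01615 genes, 3 were called higher and 1 lower (3 and 2 by DESeq2). ClCG03G006110 had 0, 16 and 13 control counts and 1483, 788 and 1234 drought counts (log2 fold change 6.62, SE 0.85, adjusted p = 0.00709 from edgeR), and ClCG07G002830 had 5, 15 and 18 and then 1094, 408 and 715 (5.56, SE 0.60, adjusted p = 0.00491 from edgeR). The third called higher, ClCG02G000600, had 83, 141 and 122 and then 446, 738 and 643 (2.11, SE 0.30; edgeR adjusted p = 0.00909, or 0.0558 when drought plant 3 was left out). By counts, drought plant 1 was highest and drought plant 2 lowest in ClCG03G006110, ClCG07G002830 and the member ClCG09G008550, whereas in ClCG02G000600 drought plant 1 was lowest and drought plant 2 highest. ClCG05G004740 went the other way, at a log2 fold change of -2.25 (adjusted p = 0.0331 from edgeR). So did ClCG01G021530, at -3.83, which edgeR did not call (adjusted p = 0.0841). It had 6, 477 and 118 control counts and 12, 18 and 19 drought counts. With each library left out in turn, ClCG03G006110, ClCG07G002830, ClCG06G000410 and ClCG02G002460 were called in all 6 fits. ClCG02G000600 was called in 5, ClCG05G004740 in 1 and ClCG11G004420 in 2.

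Other described jasmonate genes, all of ZIM-domain proteins, were not called higher in drought. These 4 genes, of repressors of the same pathway, had log2 fold changes of -1.15 to -4.48. The lowest value belonged to ClCG07G014490, which edgeR did not call (adjusted p = 0.0568). Control plant 2 held most of its control counts (158, 1464 and 67, then 29, 53 and 7 in drought). Of the 4 genes 1, ClCG07G005870, was called lower (2861, 4343 and 2833 control counts and 2130, 1143 and 1326 drought counts, adjusted p = 0.0285 from edgeR). That call held in 2 of the 6 fits with a library left out, those without control plant 2 or 3, and the adjusted p from edgeR was up to 0.133 in the others and 0.0619 with library totals. With the replicate block 3 of them were called lower, and by DESeq2 all 4. None was called higher in any of these fits, and none was higher at an unadjusted p under 0.05 from edgeR. Of 8 other senescence-associated genes, none was called higher by edgeR and 3 were called lower, against 2 and 6 both with the replicate block and by DESeq2, and also at an unadjusted p under 0.05 from edgeR.

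Other families held calls in both directions, beside 5.31% of all tested genes called higher and 8.08% called lower, a background that does not apply to lists drawn from called genes. Of 148 other genes described as transcription factors or zinc finger proteins, 31 were called higher and 61 lower (47 and 101 by DESeq2), and of 118 described as transporters, carriers or antiporters, some of them carriers within enzymes, 14 were called higher and 62 lower (31 and 87 by DESeq2). Retroelement genes were called higher in 6 of 14 and lower in 2 (11 and 3 by DESeq2). Families with no member in the group included heat shock proteins and chaperones (34 higher and 4 lower of 55), late embryogenesis proteins and dehydrins (4 and 8 of 16), raffinose sugar genes (2 and 1 of 5), Hfr-2-like genes (5 higher of 6, with none lower by edgeR, by DESeq2 or at an unadjusted p under 0.05) and protein phosphatases 2C (5 and 5 of 11).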

How the data were processed

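RNA from leaves of 3 control and 3 drought-stressed plants was sequenced, 1 library per plant. Per the labels and the paper, the authors aligned reads to the Charleston Gray genome and counted them per gene (TopHat 2.0.12 and HTSeq 0.6.1 in the design text, HISAT2 2.1.0 and featureCounts in the submitters' processing notes). The deposited read counts are whole numbers with no normalization. The deposited FPKM values were scaled by the authors to gene length and library total. Deposited columns with the authors' comparison of the conditions (fold changes, p-values) were not used. Drought columns carry the prefix TT1 and the labels DT.

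The members and lists were chosen with earlier results of these data known. Named are members by level, spread, size, position, family and nearness to a limit, and next genes called within 10 kb. Descriptions came from the study's lists, held in part. edgeR 4.0.16 (R 4.3.3) tested counts with TMM, filterByExpr (minimum count 10, minimum total 15), condition as the factor, two-sided, and Benjamini-Hochberg adjustment at 0.05. DESeq2 1.42.0 and other scalings, limits and left-out libraries were alternatives, and the comparison of which drought plant was highest was added after the data were seen. No libraries agreed within sampling noise (chi-square per degree of freedom 43.1 or more). Deviations from the condition mean correlated at 0.173, 0.445 and 0.146 between libraries numbered 1, 2 and 3. Of these only the value for number 2 was above that of control 3 with drought 1 (0.329). Neither the labels nor the paper pair control with drought plants. The replicate number was used as a block in an alternative fit only, and the main calls used condition alone. On counts simulated with the same dispersion (0.172) for every gene, edgeR recovered 132 of 200 changed genes with 6 false calls. These numbers describe the simulation only. Recovery and false calls in the sequenced plants were not tested.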

Additional observations from a re-analysis of the deposited data

How the results depend on the processing

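The number of members followed the limits: 4 with no control count allowed, 34 with a control sum up to 10, 36 and 10 with drought limits of 10 and 50, and 13 with limits on TMM-scaled counts. Leaving out a library with the limits kept can only add genes, and it gave 23 to 36. The calls depended on the libraries more than on the scaling. Genes called higher numbered 1635 by DESeq2 and 150 to 1884 with a library left out, and genes called lower 2485 and 164 to 2473. Library totals gave 5.74% of tested genes higher and 5.26% (858) lower and moved the median log2 fold change up by 0.166. Members called higher were 8 to 18 with a library left out. Next genes called higher were 8 over the next 2 genes, 9 by DESeq2 and 2 to 9 with a library left out, and those called lower were 4 by DESeq2 and 0 to 4. With the replicate block 829 genes were called higher and 1505 lower, and 18 members were called higher, with 6 next genes higher and 2 lower. The median level was 7.02 in FPKM in place of CPM. The median CV was 41.2% for members and 15.2% for comparison genes on library totals or FPKM, and 13.6% for comparison genes with 50 or more counts. The median size was 1441 bases as span and 789 bases for members with 50 or more drought counts. Pairs of members numbered 0 within 50 kb and 2 within 200 kb. The cause of these changes was not tested. With 3 plants a group and 20 to 50 counts in a library, counting error limits the lowest members.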
